A study of Homo sapiens with 2 samples.

Results

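The binding of PROX1 was examined around 4 genes of cell adhesion and of the change from an epithelial to a mesenchymal cell state: CDH1, VIM, ZEB1 and TGFBR2. Each gene was taken with about 50 kb on either side, as 1 span on the hg18 build, and a peak belonged to a span when its centre lay inside it. The 4 spans covered 806 kb and held 26 of the 23450 PROX1 peaks in the deposited list, 14 at TGFBR2, 11 at CDH1, 1 at ZEB1 and 0 at VIM. The peaks come from chromatin immunoprecipitation and sequencing (ChIP-seq) of SW480R cells, a subpopulation of the established human colorectal adenocarcinoma line SW480, grown without any treatment named in the labels. DNA bound by PROX1 was recovered from formaldehyde-fixed, enzymatically cut chromatin with 5 µg of a goat antibody, 3 independent immunoprecipitations were pooled into 1 library, and 1 library of input DNA made without antibody served as the background. With 1 library of each kind there is no replicate spread and no comparison of conditions, so every value describes this pair of libraries.

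Epithelial cells hold together through adherens junctions, in which E-cadherin, the product of CDH1, binds neighbouring cells. During an epithelial-to-mesenchymal transition this contact is lost and vimentin, the intermediate filament protein encoded by VIM, becomes prominent. ZEB1 is a zinc-finger and homeodomain transcription factor that represses CDH1 through E-box sequences, and TGFBR2 is the receptor kinase that binds TGF-beta ligands and passes the signal to TGFBR1 and the SMAD proteins, a pathway able to start this transition. PROX1 itself is a homeobox transcription factor of lymphatic, liver and lens development that is also expressed in part of colorectal tumours.

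Against the genome rate, PROX1 peaks were dense at TGFBR2 and CDH1 and few or not listed at ZEB1 and VIM. The nuclear genome outside assembly gaps held 0.00819 peaks per kb. At TGFBR2 the rate was 0.0745 peaks per kb (95% exact Poisson interval 0.0407 to 0.125), which is 9.09 times the genome rate, and at CDH1 it was 0.0556 (0.0277 to 0.0994), or 6.78 times. At ZEB1 it was 0.00321 (8.14e-05 to 0.0179), or 0.392 times, and the interval for VIM, with no peak, ran from 0 to 0.0338. The intervals of TGFBR2 and CDH1 overlapped each other, that of ZEB1 lay under both, and that of VIM overlapped CDH1 and ZEB1 but not TGFBR2. Differences between spans were not tested. All intervals cover counting error only and take peaks as independent.

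**Figure D1:**
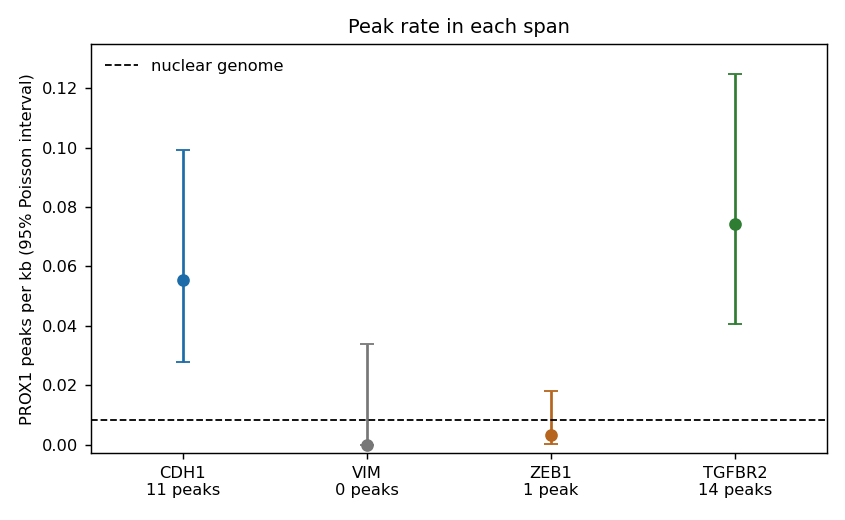
Peaks per kb in each of the 4 spans (points) with 95% exact Poisson intervals (bars), and the rate of the nuclear genome (dashed line). TGFBR2 and CDH1 lie above the line with their whole intervals, while the intervals of ZEB1 and VIM include it.

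An exact two-sided binomial test set each span, and every adjacent nuclear window of the same width, against the genome rate, with Benjamini-Hochberg adjustment over the span and all windows of its width. The adjustment does not cover the choice of the 4 spans, which was made with earlier results of these data known. TGFBR2 (adjusted p = 1.63e-07, exact binomial test) and CDH1 (adjusted p = 6.97e-05) were called higher, and ZEB1 (adjusted p = 0.661) and VIM (adjusted p = 1) were not called. Peaks cluster throughout the genome, so this test calls many stretches: it called higher 5.12% of the windows as wide as the TGFBR2 span, 5.68% of those as wide as CDH1, 6.78% as wide as ZEB1 and 2.99% as wide as VIM. In rank, 0.701% of 14971 windows held at least the 14 peaks of TGFBR2, and 1.67% of 14215 windows held at least the 11 peaks of CDH1. At the other end, 54.4% of 8979 windows held no more than the 1 peak of ZEB1, and 62.9% of 25986 windows held none, as at VIM. A low count at ZEB1 or VIM is therefore common for stretches of that width. The median window held 1 peak at the width of ZEB1 and 0 at that of VIM. No window of any of the 4 widths could be called lower, since 0 peaks would give an unadjusted p of 0.194 at the width of ZEB1 and of 1 at that of VIM (exact binomial test).

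**Figure D2:**
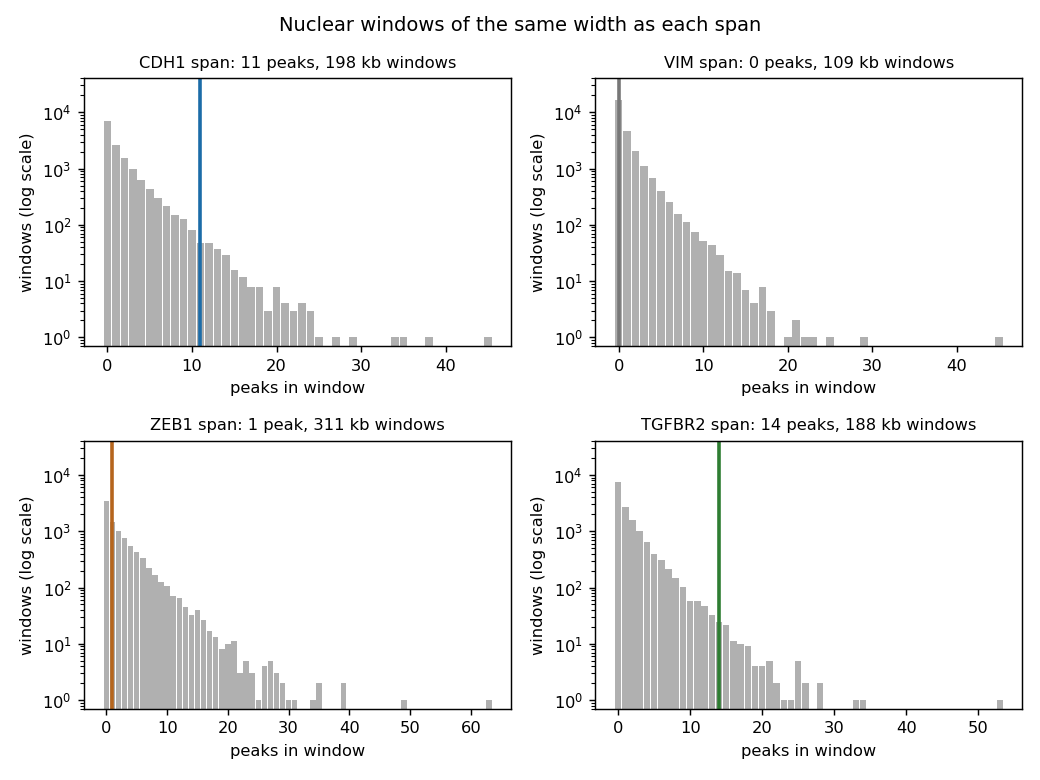
Numbers of peaks in adjacent nuclear windows as wide as each span (grey bars, number of windows on a log scale), with the count in the span itself (coloured line). TGFBR2 with 14 peaks and CDH1 with 11 stand in the upper tail, ZEB1 with 1 and VIM with 0 among the commonest counts.

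Part of the excess lay in runs, meaning peaks whose edges were within 10 kb of each other. With each run counted once, TGFBR2 held 6 runs (6.18 times the genome's runs per kb, adjusted p = 0.0698, exact binomial test) and CDH1 held 5 (4.89 times, adjusted p = 0.150), so neither call remained. On this count 0.22% of the windows as wide as TGFBR2 and 0.253% of those as wide as CDH1 were called higher. At least 6 runs were found in 0.721% of the windows as wide as TGFBR2, and at least 5 in 2.66% of those as wide as CDH1. The surroundings were also above the genome rate: the 500 kb on either side held 28 peaks at TGFBR2 (0.028 per kb) and 20 at CDH1 (0.02 per kb). Against these neighbours the spans stood at 2.66 times (unadjusted p = 0.00467, exact binomial test) and 2.78 times (unadjusted p = 0.0121, exact binomial test). This background was chosen after seeing the data, and the test takes peaks as independent although they cluster. The test was not repeated with runs counted once or on other windows. The same flanks held 14 peaks at ZEB1 and 4 at VIM.

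At TGFBR2 the peaks began 22.4 kb before the gene and stood in separate groups from its start to near its end. The span is chr3:30573000-30761000 (hg18), and the gene, read from left to right, was placed at 30623000 to 30711000 by taking 50 kb off each end, which is good to about 1 kb. The gene part held 10 peaks in 88 kb (0.114 per kb, interval 0.0545 to 0.209), the 50 kb before it 3 peaks and the 50 kb after it 1. The number in the gene part depends on the margin: it was 12 with 40 kb taken off each end and 6 with 60 kb. Both changes are larger than the error of about 1 kb. No other of the 4 genes had a peak within 1 kb of its placed start. There, TGFBR2 had a pair of peaks: 1 at 30622391 to 30622431 with 24 tags and a fold over input of 24.06, 0.6 kb before the start, and 1 at 30622891 to 30623131, across the placed start itself, with 39 tags and a fold of 13.03. Tags are the ChIP reads counted in a peak, and the fold is the authors' ratio to input. The peak on the start was 240 bp wide, the widest of the 26, but its fold of 13.03 was the lowest value in the list. It shared this value with other peaks: 9.57% of nuclear peaks had a fold no higher. Input tags inferred from tags and fold were 3 for this peak and the lowest possible value, 1, for the other 13 at TGFBR2. The value 1 may stand for 0 or 1 input tags, so those 13 folds follow the tag counts.

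RefSeq (GRCh38.p14) gives TGFBR2 a pair of starts, both on the plus strand. The 250 bases before each are shown because this is the only promoter of the 4 with peaks at the placed start, and that of VIM is shown as the promoter of the gene without a peak. They are chr3:30606106-30606355 and chr3:30606351-30606600 for TGFBR2 and chr10:17227991-17228240 for VIM, in GRCh38.p14 positions that cannot be set beside the hg18 peak positions. Capitals mark GGGCGG on either strand, the GC box bound by SP-family factors.
TGFBR2 upstream start: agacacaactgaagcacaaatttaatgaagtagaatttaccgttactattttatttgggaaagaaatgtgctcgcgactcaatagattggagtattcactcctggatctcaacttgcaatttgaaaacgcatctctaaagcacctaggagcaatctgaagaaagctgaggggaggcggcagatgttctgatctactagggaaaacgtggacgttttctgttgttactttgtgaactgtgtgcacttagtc
TGFBR2 downstream start: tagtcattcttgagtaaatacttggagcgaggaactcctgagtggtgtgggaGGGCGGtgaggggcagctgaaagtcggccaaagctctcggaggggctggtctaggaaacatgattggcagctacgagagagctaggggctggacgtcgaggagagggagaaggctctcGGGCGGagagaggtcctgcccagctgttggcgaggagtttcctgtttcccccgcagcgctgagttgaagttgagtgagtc
VIM: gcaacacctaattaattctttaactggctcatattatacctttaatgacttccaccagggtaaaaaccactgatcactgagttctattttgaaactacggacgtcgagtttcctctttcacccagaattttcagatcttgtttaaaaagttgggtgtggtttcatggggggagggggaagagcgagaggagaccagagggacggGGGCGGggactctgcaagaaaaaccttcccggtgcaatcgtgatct
The GC box occurred 0 times before the upstream TGFBR2 start, 2 times before the downstream one and 1 time before VIM, and 42.6% of 35116 RefSeq promoter windows of this length hold it. CACCTG, the E-box that ZEB1 binds, was searched on both strands and is in none of these 3 windows, against 17.5% of all. The bases were 40.8% and 58.4% G or C in the TGFBR2 windows and 46% in that of VIM. For ZEB1, RefSeq lists 7 starts, and 2 of the 7 windows hold CACCTG. Most of the 7 hold GGGCGG, up to 3 times with overlapping matches counted, and no peak lay at the placed start of ZEB1. A motif match here describes the letters only.

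The strongest TGFBR2 peaks lay inside the gene, away from its start. Peaks at 2 times the lowest fold of the list or more, that is 26.06 or more, are called strong here, and they make up 30.3% of nuclear peaks. They were 7 of the 14 at TGFBR2, of which 6 lay in the gene and 1 in the 50 kb after it. The highest was the peak at 30642511 to 30642631, 19.6 kb into the gene, with 76 tags and a fold of 76.19, a fold at or above that of 97.6% of nuclear peaks. It headed a run of 3 with peaks of 20 tags at 20.5 kb and 31 tags at 24.9 kb. A further run of 3 at 52.1 to 60.9 kb had 29, 45 and 67 tags, and all 3 were strong. Near the end of the gene, the run at 82.8 to 87.1 kb had 58, 23 and 14 tags, of which only the first (fold 58.14) was strong. Outside the gene, the peaks 22.4 and 9.1 kb before it had 15 and 22 tags and were not strong. The peak 114.8 kb from the start, on the side where GADL1 follows in the RefSeq order, had 31 tags and a fold of 31.08. RefSeq also places at least part of the protein-coding LOC105377015 and of the pseudogene KLHL25P1 within 50 kb of TGFBR2. The peaks outside the gene were assigned to none of these genes. The tags of single peaks overlapped between these places, with 14 to 76 in the 3 inner runs and 15 to 39 at and before the start, but no peak at or before the start was strong. The tags of the 14 peaks summed to 494, with a median of 30, against a median of 25 in nuclear peaks. By width, 9 of the 14 were 80 bp or wider, against 27.9% of nuclear peaks. Beyond the span, the next peaks were 53.7 kb to the left (28 tags) and 8.69 kb to the right (14 tags).

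**Figure D3:**
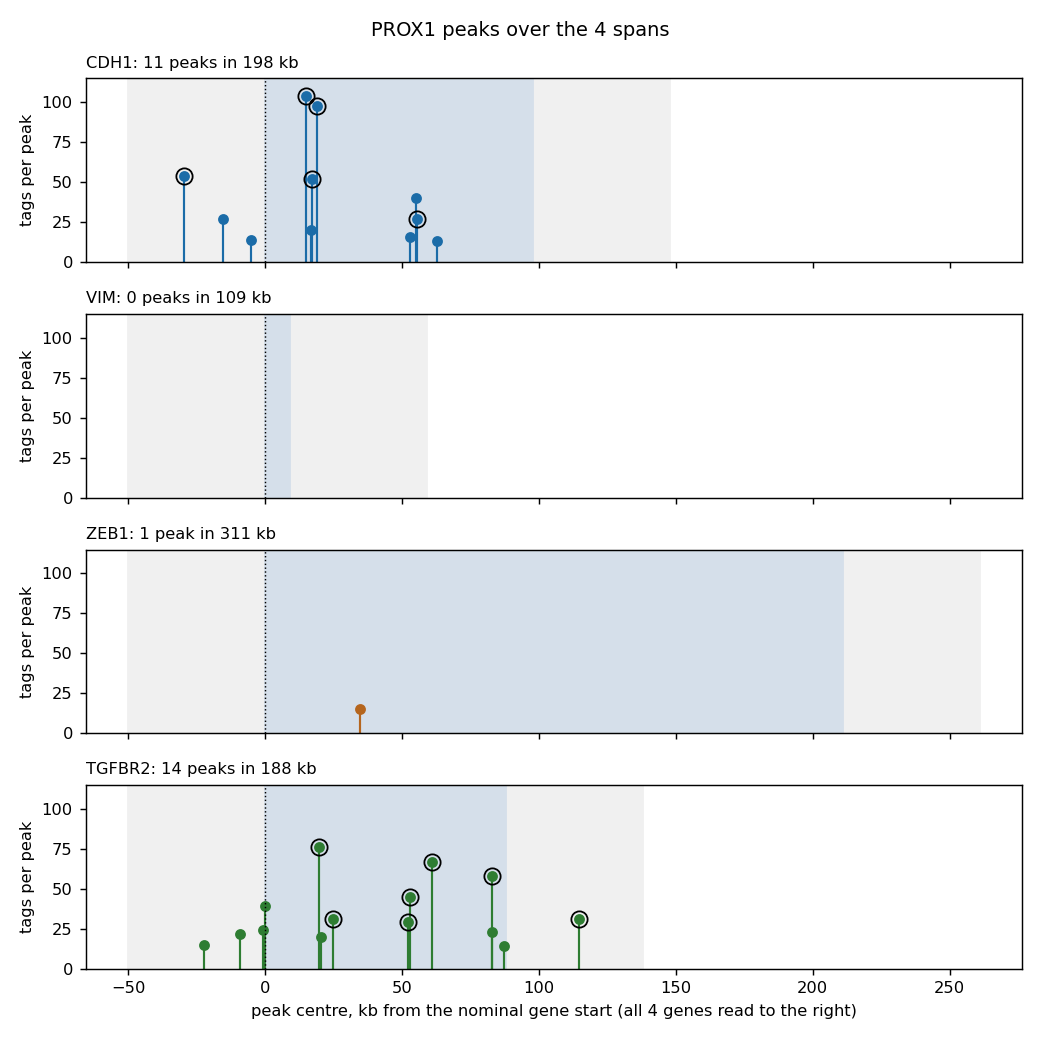
Tags in each peak (y axis, dots on stems) against the distance of its centre from the placed gene start in kb (x axis), 1 panel per gene, with the gene in blue and its 50 kb margins in grey; rings mark strong peaks. TGFBR2 has peaks from 22.4 kb before the start to 114.8 kb after it, CDH1 has them from 29.6 kb before to 62.9 kb after, ZEB1 has 1 at 34.7 kb and VIM none.

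At ZEB1, 1 peak was listed in 311 kb. The span is chr10:31598000-31909000 and the gene was placed at 31648000 to 31859000. The peak lay at 31682671 to 31682711, 34.7 kb into the gene, with 15 tags and a fold of 15.04, at or above 20.1% of nuclear peaks in tags and 27.7% in fold. It was therefore in the low part of the list and not strong, and it was alone, with no other peak within 10 kb. No peak lay in either 50 kb margin, which on the left holds the antisense gene ZEB1-AS1 in the RefSeq order. The nearest peaks outside were 25.9 kb to the left of the span, with 74 tags and a fold of 18.55, and 20.3 kb to the right, with 13 tags and a fold of 13.03. With 50 kb more on each side the span took in these and 1 other peak, and the rate turned to 1.19 times that of the genome (adjusted p = 0.731, exact binomial test). A rate of up to 2.19 times that of the genome was within the interval for the 311 kb. A reduced rate could not be called here, since even 0 peaks would give an unadjusted p of 0.194 (exact binomial test).

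At CDH1 the 11 peaks lay before the start and in the gene up to 62.9 kb from its start. The span is chr16:67279000-67477000, with the gene placed at 67329000 to 67427000. The gene part held 8 peaks in 98 kb (0.0816 per kb, interval 0.0352 to 0.161), the 50 kb before it 3, and the 50 kb after it 0. All 8 peaks in the gene were in 2 runs of 4, and none lay between 62.9 kb and the end of the gene. The first run, at 15.1 to 18.8 kb, held the peaks with the most tags of all 26: 104 tags at 67344051 to 67344091 and 98 at 67347791 to 67347831. Between them lay peaks of 20 and 52 tags. The order by fold differed from that by tags. The peak of 52 tags (67345931 to 67346091) had the highest fold at CDH1, 52.13, with an inferred input of 1, while that of 104 tags had a fold of 26.06 with an inferred input of 4, which is exactly the lower bound of a strong peak. The peak of 98 tags had a fold of 49.12 with an inferred input of 2. The first run thus held 3 of the 5 strong CDH1 peaks and 274 of the 465 tags in the span.

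The second CDH1 run, at 52.8 to 62.9 kb, was weaker, with 16, 40, 27 and 13 tags. Of these the peak of 27 tags (fold 27.07) was strong, and that of 40 tags had a fold of 13.37 with an inferred input of 3. Before the gene, single peaks stood at 29.6 kb (54 tags, fold 27.07), 15.4 kb (27 tags, fold 22.05) and 5.2 kb (14 tags, fold 14.03). At least part of CDH3, the gene of P-cadherin, lies within 50 kb before CDH1 in RefSeq, so these 3 peaks are near both genes. They were assigned to neither. Exons and introns of hg18 were not used here, so none of the 26 peaks is placed in one. No CDH1 peak lay within 1 kb of the placed start, the nearest being the one 5.2 kb before it. The RefSeq table used for promoters has no entry for CDH1. The median of the 11 peaks was 27 tags, and the inferred input was above the lowest value in 5 of them, against 1 of 14 at TGFBR2. Among nuclear peaks 71.9% had the lowest inferred input. Outside the span the next peaks were 252.6 kb to the left (73 tags) and 36.2 kb to the right (22 tags).

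No peak was listed at VIM. The span is chr10:17261000-17370000, with the gene placed at 17311000 to 17320000. On the left, VIM-AS1 and at least part of TRDMT1 lie within 50 kb of the gene in RefSeq. The genome rate gives 0.893 peaks in 109 kb, so 0 peaks allow a rate of up to 4.13 times that of the genome (upper bound of the exact Poisson interval). The nearest peaks were at 17105631 to 17105671, 155.3 kb to the left of the span with 15 tags, and at 17689671 to 17689731, 319.7 kb to the right with 14 tags. VIM therefore lay in a stretch of 584 kb between peak centres, with low counts at both ends. Chromosome 10, which carries VIM and ZEB1, held 0.00936 peaks per kb over its length without gaps, slightly above the genome rate. The list gives peaks only, and tags at VIM below the authors' threshold were not assessed.

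Compared with the list as a whole, the 26 peaks ran from the low end of tags and fold into the high range, up to a tag count at or above that of 95.2% of nuclear peaks and a fold at or above that of 97.6%. Their tags ran from 13 to 104, and 15 of the 26 exceeded the nuclear median of 25. Strong peaks were 12 of 26 (46.2%), against 30.3% of nuclear peaks (exact binomial interval 29.7 to 30.9), and all 12 were at TGFBR2 or CDH1. At TGFBR2 3 peaks and at CDH1 1 peak had a fold of at least 50, against 7.62% of nuclear peaks. In runs of 2 or more were 20 of the 26, against 56.6% of nuclear peaks. These shares are descriptions of few, neighbouring peaks and were not tested. Of the peaks that follow each other inside a span, 4 pairs at TGFBR2 and 2 at CDH1 had centres within 1 kb, and the closest were 0.25 and 0.26 kb apart. Whether such pairs are separate sites was not tested. Summed over a span, tags in peaks came to 2.63 per kb at TGFBR2 and 2.35 at CDH1, against 0.0482 at ZEB1 and 0.309 over the nuclear genome.

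**Figure D4:**
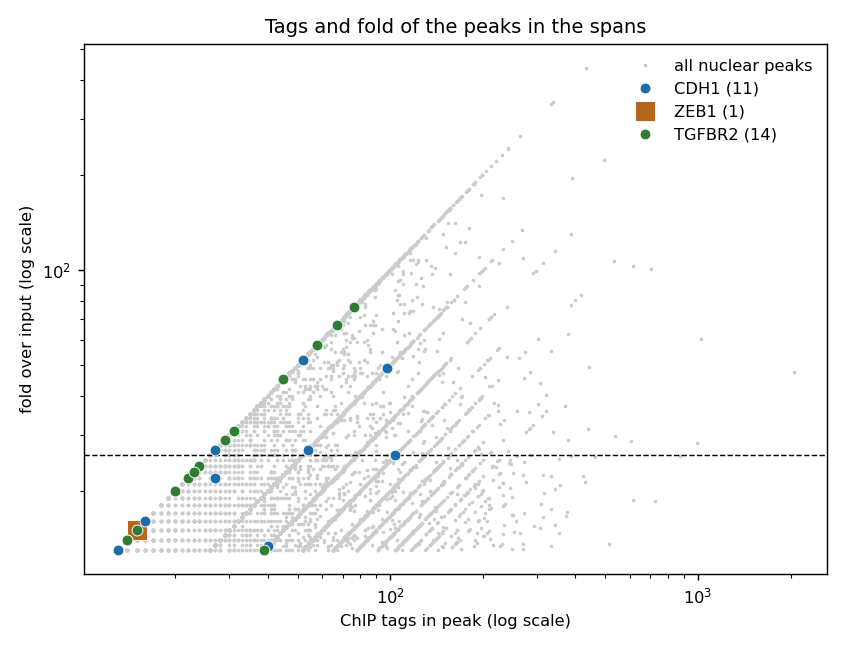
Fold over input against ChIP tags, both on log scales, for all nuclear peaks (grey) and for the peaks in the spans of CDH1 (blue), ZEB1 (brown square) and TGFBR2 (green), with the bound of strong peaks at a fold of 26.06 (dashed line). The upper diagonal edge holds peaks at the lowest inferred input, where 13 of the 14 TGFBR2 peaks lie, and several CDH1 peaks fall below it.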

How the data were processed

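PROX1 ChIP and input DNA libraries from SW480R cells, 1 of each, enter through the authors' peak list on hg18 (build per the submitters' processing notes). Which aligner, peak caller and threshold were used, and how deep each library was, the sources used here do not state. Without a header, columns were identified from their values. Tag counts, as deposited, are unnormalized integers of at least 13. The deposited fold is a ratio of ChIP to input tags. The deposited p-value, which may be a q-value, was not used. Each peak reached a fold of 13.03. Positions are as listed, whether counted from 0 or 1.

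Inferred input is tags times 1.0025 divided by the fold. It was a whole number within 0.02 for all but 1 of the 26 peaks, at CDH1. Windows needed 95% of their width outside assembly gaps, on 24 nuclear chromosomes. The 33 mitochondrial peaks were left out. Contigs came from IRanges 2.36.0 and chromosome lengths from GenomeInfoDb 1.38.1 (R 4.3.3). Python 3.11.15, scipy 1.17.1, pandas 2.3.3 and matplotlib 3.10.9 were used. The window test was tried on simulated counts drawn independently for each window, without the clustering of this list. That simulation does not show how the test behaves on clustered peaks. Genes were named as the rule for the 4 spans gives them, and other pathway genes were not located, since no hg18 annotation was used here. The genes, spans, lists and tests were chosen with earlier results of these data known. RefSeq names and sequences carry GRCh38.p14, and 3 of the 4 genes had promoter entries. Strand follows RefSeq for these 3 and general knowledge for CDH1. Alternatives covered the peaks counted, the background, the extent of a span, the joining distance and the strong threshold.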

Additional observations from a re-analysis of the deposited data

How the results depend on the processing

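Of 68 recalculations of 19 values, 53 kept their direction and side of the threshold or stayed near the reported value. The 53 include every recalculation for VIM, where 0 peaks stayed 0, and most for ZEB1, with its 1 peak. They therefore do not measure how firm the results at TGFBR2 and CDH1 are. Counting runs joined within 10 kb once ended both calls, at 4.89 times the genome rate for CDH1 and 6.18 times for TGFBR2, by the exact binomial test on fewer items. With 1 kb as the joining distance, both were called. With 50 kb more at each end ZEB1 turned to 1.19 times the genome rate, not called. Both calls held with the nuclear peaks among the 11725 best-ranked of the list, ranked by fold and then by tags. They also held with the own chromosome's rate, gaps included, the gene alone, a wider span and overlap in place of centres. Against the rate of the 500 kb on either side, a background chosen after seeing the data, the ratios fell from 6.78 to 2.78 at CDH1 (exact binomial p = 0.0121) and from 9.09 to 2.66 at TGFBR2 (exact binomial p = 0.00467). These p-values take peaks as independent and are not adjusted over windows (the 53 above count this setting by them), so the call itself was not repeated there.

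Runs numbered 9 at CDH1 and 10 at TGFBR2 when joined within 1 kb, and 1 in each when joined within 50 kb. Tags per kb, in place of the median per peak, were 7.6 times the genome's at CDH1, 8.5 times at TGFBR2 and 0.156 times at ZEB1, since they also count how many peaks there are. At 3 times the lowest fold 2 peaks were strong at CDH1 and 4 at TGFBR2 (23.1% of the 26, against 13.5% of nuclear peaks). At 1.5 times 11 were strong at TGFBR2 (69.2% of the 26, against 49.4%). By tags in the upper quartile 4 were strong at TGFBR2 and 8 of the 26 (30.8%, against 25.1%). The gene part of TGFBR2 held 12 peaks with 40 kb taken off each end and 6 with 60 kb. The margin of 60 kb left nothing of the VIM span. ZEB1 has 1 peak, so nothing remained without its highest. The depth of either library is unknown, which limits what a place without a peak can show.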
